A study of Homo sapiens with 6 samples.

Results

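The genes described here are 7 transcription factors listed as luminal prostate lineage factors: FOXA1, HOXB13, SPDEF, GATA2, NR3C1, GRHL2 and KLF5. Luminal is the name of the list and not a result for each member. These 7 genes were taken by name, as the rows of the expression table whose Ensembl identifiers carry those symbols in GENCODE release 29. All 7 names were found, each with 1 identifier, among 58735 genes in the table. All 7 passed the filter on low values that left 15638 genes for testing, but only FOXA1, GATA2, GRHL2 and KLF5 passed through both cell lines. HOXB13 and SPDEF passed through C4-2B MDVR alone and NR3C1 through H660 alone, so that these 3 had to differ between the lines in order to be tested at a low level in one of them.

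Expression was measured in 6 libraries of messenger RNA, 3 from each of 2 human lines. C4-2B MDVR descends from C4-2B, a prostate cancer line of the LNCaP lineage, and was selected for growth under enzalutamide, an androgen receptor antagonist. H660 (NCI-H660) is a line from a neuroendocrine prostate carcinoma. Each line was transfected with a control siRNA (1 library), PLXND1 siRNA 1 (1 library) or PLXND1 siRNA 2 (1 library), where PLXND1 encodes the semaphorin receptor Plexin D1. No library of either line was without an siRNA, and no control or siRNA was repeated within a line. Whether separate cultures were used is not given in the labels, so every p-value below measures only the spread between these libraries. The 2 lines differ in origin and history, and each comes from a single patient's tumour, so a difference between them is a difference between these 2 lines.

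Luminal prostate cells are organised around the androgen receptor, a steroid-activated transcription factor. FOXA1 is a pioneer factor of the forkhead family that opens chromatin for the receptor, HOXB13 is a posterior homeobox factor that binds beside it, and GATA2 is a zinc finger factor that acts upstream of it and at shared enhancers. SPDEF is an ETS factor of secretory epithelium, GRHL2 is a grainyhead factor that maintains epithelial junction genes, and KLF5 is a Krüppel-like zinc finger factor of epithelial progenitor cells. NR3C1 encodes the glucocorticoid receptor, which recognises nearly the same DNA element as the androgen receptor and can take over part of its program in resistant tumours.

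The promoter sequences of the genes that stood at opposite ends of the line difference, SPDEF (high in C4-2B MDVR) and NR3C1 (0 fragments there), are shown together with those of FOXA1, whose level was most alike in the lines, and KLF5, which was higher in H660. Each is the 300-base RefSeq window on GRCh38.p14 from 250 bases before to 50 bases after an annotated start: chr6:34556280-34556579 for SPDEF (minus strand), chr5:143403234-143403533 for NR3C1 (minus strand), chr14:37595200-37595499 for FOXA1 (minus strand) and chr13:73058755-73059054 for KLF5 (plus strand). Capitals mark any of 6 words searched on both strands: GGGCGG, the core of the box bound by Sp and Krüppel-like factors; AGATAA, which GATA factors read; TGTTTAC, a word of the forkhead factors; AGAACA, 1 arm of a steroid receptor element; AACCGGTT, a word of the grainyhead factors; and TATAAA, the core promoter element of that name.
SPDEF: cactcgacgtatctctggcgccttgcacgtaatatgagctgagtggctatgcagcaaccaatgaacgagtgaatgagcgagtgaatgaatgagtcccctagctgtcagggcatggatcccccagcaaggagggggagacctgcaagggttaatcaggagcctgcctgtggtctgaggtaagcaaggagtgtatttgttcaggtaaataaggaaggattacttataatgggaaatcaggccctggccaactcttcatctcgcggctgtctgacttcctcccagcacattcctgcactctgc
NR3C1: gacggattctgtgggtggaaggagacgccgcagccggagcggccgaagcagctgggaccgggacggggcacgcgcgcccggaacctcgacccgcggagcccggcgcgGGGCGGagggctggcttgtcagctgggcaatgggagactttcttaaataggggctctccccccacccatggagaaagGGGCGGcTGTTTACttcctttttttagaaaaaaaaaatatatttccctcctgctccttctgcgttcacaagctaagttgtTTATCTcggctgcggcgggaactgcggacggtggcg
FOXA1: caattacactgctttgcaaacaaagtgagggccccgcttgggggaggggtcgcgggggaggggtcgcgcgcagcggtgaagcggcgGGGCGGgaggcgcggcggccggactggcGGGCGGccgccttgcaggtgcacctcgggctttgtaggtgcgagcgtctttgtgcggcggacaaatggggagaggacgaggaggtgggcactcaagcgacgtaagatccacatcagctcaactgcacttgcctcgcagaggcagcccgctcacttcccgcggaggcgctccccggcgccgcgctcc
KLF5: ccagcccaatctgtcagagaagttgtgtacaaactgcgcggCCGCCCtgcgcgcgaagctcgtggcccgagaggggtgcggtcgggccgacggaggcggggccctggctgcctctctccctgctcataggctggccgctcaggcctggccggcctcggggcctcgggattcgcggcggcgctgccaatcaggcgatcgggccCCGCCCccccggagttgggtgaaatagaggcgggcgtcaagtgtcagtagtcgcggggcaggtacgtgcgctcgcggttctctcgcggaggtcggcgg

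RefSeq windows were found for 5 of the 7 genes, 13 windows in all (1 each for FOXA1 and SPDEF, 2 each for GATA2 and KLF5, and 7 for NR3C1); HOXB13 and GRHL2 had none. The SPDEF window had the lowest GC content of the 4 printed, 52.0%, with 8 CpG dinucleotides and none of the 6 words. The FOXA1 window held 69.3% GC, 34 CpG and 2 matches to GGGCGG, and the KLF5 window held 71.3% GC, 37 CpG and 2 matches. The NR3C1 window printed, the one of its 7 with the most matches, held 61.3% GC and 27 CpG. It had 2 matches to GGGCGG, 1 to TGTTTAC and 1 to AGATAA. The 7 NR3C1 windows ran from 34.7% GC with 0 CpG to 82.3% GC with 51 CpG, on both sides of the SPDEF window. An NR3C1 window with 42.0% GC and 3 CpG also held none of the 6 words. Over the 35116 RefSeq windows of the same length the median was 58.7% GC and 14 CpG. GGGCGG was present in 44.95% of them, AGAACA in 14.8%, TATAAA in 11.5%, AGATAA in 10.3%, TGTTTAC in 3.42% and AACCGGTT in 0.134%. KLF5 also has a window farther upstream (chr13:73054726-73055025) with 40.7% GC, 4 CpG, 1 match to AGAACA and 1 to TATAAA. A match is a description of letters, and the expression table gives 1 value per gene, so it does not show which start was used.

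The deposited values are FPKM, which are fragment numbers scaled by exon length and library size, so that levels can be set side by side between genes. They correspond to 17655802 to 24105369 fragments assigned to genes per library. The mitochondrial share of fragments was 3.38% in the C4-2B MDVR control, 6.83% and 7.44% in the knockdown libraries of that line, and 8.58% to 9.64% in H660, so that the C4-2B MDVR control stood apart. PLXND1 itself was at 21.2% of control with siRNA 1 and 41.8% with siRNA 2 in C4-2B MDVR (7.40, 1.57 and 3.10 FPKM), but at 83.5% and 82.6% in H660 (9.13, 7.62 and 7.54 FPKM). Neuroendocrine markers summed to between 12.5 and 15.5 FPKM in C4-2B MDVR, with 6 to 9 of 16 at 0, and to between 1106 and 1171 in H660, with at most 1 at 0. Luminal markers summed to between 620 and 1209 FPKM in C4-2B MDVR and, with 3 of 11 at 0 and KRT8, KRT19 and CD24 higher, to between 638 and 694 in H660. Basal markers summed to between 12.2 and 20.5 FPKM over the 6 libraries. Of these 11, 3 or 4 were at 0 in a library, KRT5 in every one, and 3 to 5 were at 1 FPKM or more. Fibroblast and endothelial markers summed to between 4.15 and 12.5 FPKM.

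FOXA1, HOXB13 and SPDEF were among the most abundant transcripts of C4-2B MDVR, and only FOXA1 stayed at that level in H660. In C4-2B MDVR the order of the mean levels was SPDEF at 224 ± 27.0 FPKM (SD, n = 3 libraries, 1 control and 2 knockdown, as for every mean here), HOXB13 at 161 ± 52.3, FOXA1 at 117 ± 12.2, GRHL2 at 45.4 ± 8.05, GATA2 at 41.1 ± 9.89, KLF5 at 4.77 ± 1.82 and NR3C1 at 0. The libraries of SPDEF and HOXB13, of HOXB13 and FOXA1, and of GRHL2 and GATA2 overlapped, so these neighbours are not separated by the spread; the steps from FOXA1 to GRHL2, from GATA2 to KLF5 and from KLF5 to NR3C1 were. In H660 the order was FOXA1 at 79.0 ± 0.520 FPKM, KLF5 at 28.0 ± 4.97, GRHL2 at 15.9 ± 0.485, GATA2 at 8.24 ± 0.440, NR3C1 at 5.40 ± 0.658, SPDEF at 0.531 ± 0.413 and HOXB13 at 0.239 ± 0.0839. There, only SPDEF and HOXB13 overlapped.

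**Figure D1:**
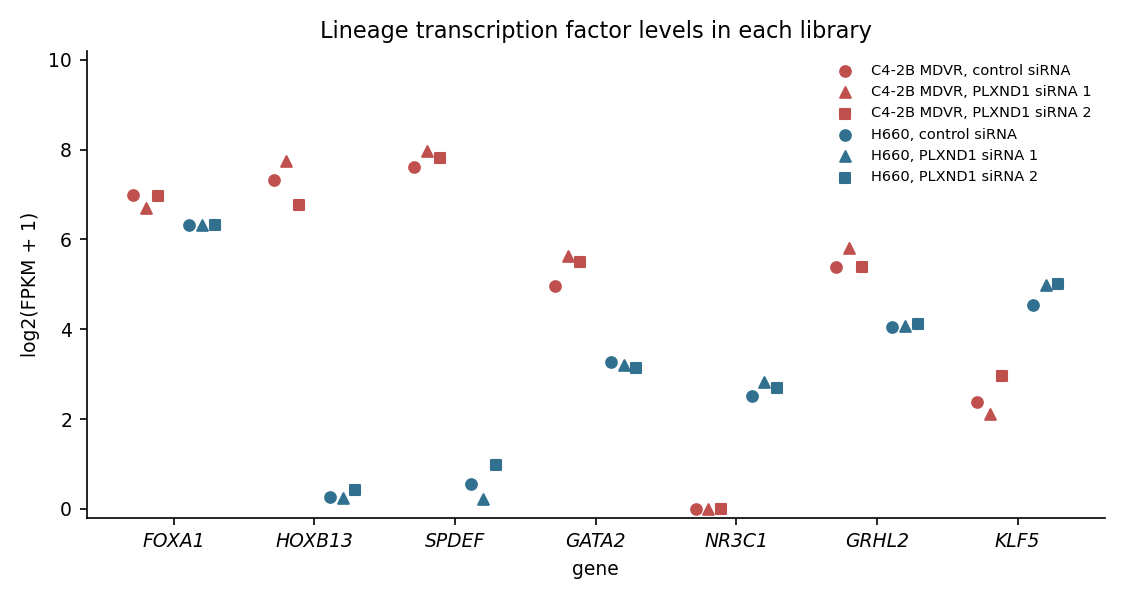
Level of each of the 7 transcription factors in each library, as log2(FPKM + 1), with C4-2B MDVR in red and H660 in blue; circles are control siRNA, triangles PLXND1 siRNA 1 and squares PLXND1 siRNA 2. The red and blue points of every gene are apart, by least for FOXA1, and the C4-2B MDVR points of NR3C1 lie at 0.

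The line difference was tested with limma over all 6 libraries, with the treatment as a term, and a call needed an adjusted p under 0.05 and at least a 2-fold difference on the log2(FPKM + 1) scale. By that rule 6 of the 7 genes were called, where 38% of the 15638 genes tested were, and 72.5% had an unadjusted p under 0.05. Of these, 4 were higher in C4-2B MDVR (17.9% of genes tested) and 2 were higher in H660 (20.1% of genes tested). Among the 4 genes that passed the filter through both lines 3 were called, against 27.3% of the 11196 such genes in the table. The other 3 genes, which passed through 1 line only, were all called, as were 65% of such genes. The filter favoured a difference for HOXB13, SPDEF and NR3C1, so their p-values below are description and not support. All 7 genes had libraries that did not overlap between the lines, as did 74.5% of genes tested. The same 6 genes were called, and FOXA1 was not, in each of the 14 alternative settings tried.

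FOXA1 (ENSG00000129514; chromosome 14, 37589984 to 37596059, minus strand, GRCh38) was the one of the 7 that did not reach the 2-fold rule. Its levels were 125.1 FPKM in the C4-2B MDVR control, 103.1 with siRNA 1 and 123.2 with siRNA 2, against 79.0, 78.5 and 79.5 in H660. Every C4-2B MDVR library was above every H660 library, but the ratio of the means was only 1.48. The log2 difference, H660 minus C4-2B MDVR, was -0.56 ± 0.12 (SE; limma adjusted p = 0.00658), and 37.2% of the genes tested had a smaller absolute difference. Between 98.2% and 98.8% of protein-coding genes lay below FOXA1 in each of the 6 libraries. This difference is sensitive to scale: it was -0.16 (adjusted p = 0.298) after quantile normalization and -0.26 (adjusted p = 0.0916) after rescaling to the same summed FPKM over protein-coding nuclear genes, so the lower level in H660 did not pass the test under either.

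HOXB13 (ENSG00000159184; chromosome 17, 48724763 to 48729178, minus strand) was read at 160.2, 213.0 and 108.4 FPKM in the C4-2B MDVR control, siRNA 1 and siRNA 2 libraries. In H660 the values were 0.198, 0.184 and 0.336 FPKM, which rest on 17, 15 and 30 fragments. The groups were far apart, with a ratio of means of 671 and a log2 difference of -6.98 ± 0.25 (limma adjusted p = 5.96e-06). The C4-2B MDVR values were themselves wide apart, the siRNA 2 library being the lowest and the siRNA 1 library the highest.

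SPDEF (ENSG00000124664; chromosome 6, 34537802 to 34556333, minus strand) had the highest mean of the 7 in C4-2B MDVR, with 196.0 FPKM in the control, 249.8 with siRNA 1 and 225.2 with siRNA 2. In H660 it was at 0.464, 0.156 and 0.973 FPKM, on 22, 7 and 48 fragments. The ratio of means was 421 and the log2 difference -7.22 ± 0.21 (limma adjusted p = 3.04e-06). On 7 to 48 fragments the H660 libraries show a low level and resolve little beyond that.

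GATA2 (ENSG00000179348; chromosome 3, 128479427 to 128493185, minus strand) was lower in H660 but still well read there, on 863 to 958 fragments. Its levels were 29.9, 48.9 and 44.4 FPKM in C4-2B MDVR and 8.68, 8.24 and 7.80 FPKM in H660, in the order control, siRNA 1, siRNA 2. The mean was 4.99-fold higher in C4-2B MDVR, with a log2 difference of -2.16 ± 0.17 (limma adjusted p = 0.000103). The C4-2B MDVR control lay closest to H660, and without it the gene was still called.

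GRHL2 (ENSG00000083307; chromosome 8, plus strand) was at 40.6, 54.7 and 40.8 FPKM in C4-2B MDVR and at 15.5, 15.9 and 16.5 FPKM in H660. The C4-2B MDVR mean was 2.85-fold higher, the smallest of the called differences, at -1.44 ± 0.14 on the log2 scale (limma adjusted p = 0.000227). Both lines therefore carried the transcript of this epithelial factor at a level above at least 85.6% of protein-coding genes.

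KLF5 (ENSG00000102554; chromosome 13, 73054976 to 73077542, plus strand) ran the other way. Its levels were 4.16, 3.34 and 6.82 FPKM in C4-2B MDVR and 22.2, 30.8 and 30.9 FPKM in H660. Every H660 library was above every C4-2B MDVR library, with a 5.86-fold higher mean and a log2 difference of 2.36 ± 0.23 (limma adjusted p = 0.000223).

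NR3C1 (ENSG00000113580; chromosome 5, 143277931 to 143435512, minus strand) had 0 fragments in all 3 C4-2B MDVR libraries. The 95% intervals for counting error ended at 0.0194, 0.0200 and 0.0248 FPKM in the control, siRNA 1 and siRNA 2 libraries. A count of 3 fragments would be 0.0158 to 0.0201 FPKM per library. In H660 it was at 4.73, 6.04 and 5.44 FPKM, on 1073, 1302 and 1286 fragments. The H660 mean was 311-fold the level that 3 fragments per library would give in C4-2B MDVR. The fitted difference on the log2(FPKM + 1) scale was 2.67 ± 0.12 (limma adjusted p = 1.25e-05). None of 20 housekeeping genes checked was at 0 in any library, the lowest being at 7.14 FPKM. These are abundant genes, so they do not show whether the reads of a single gene were lost in counting. For NR3C1 that was not tested, and the grainyhead relative TFCP2 was also at 0 in C4-2B MDVR. In bulk RNA a lower level can come from fewer cells with the transcript or from less transcript per cell, and these cannot be told apart.

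**Figure D2:**
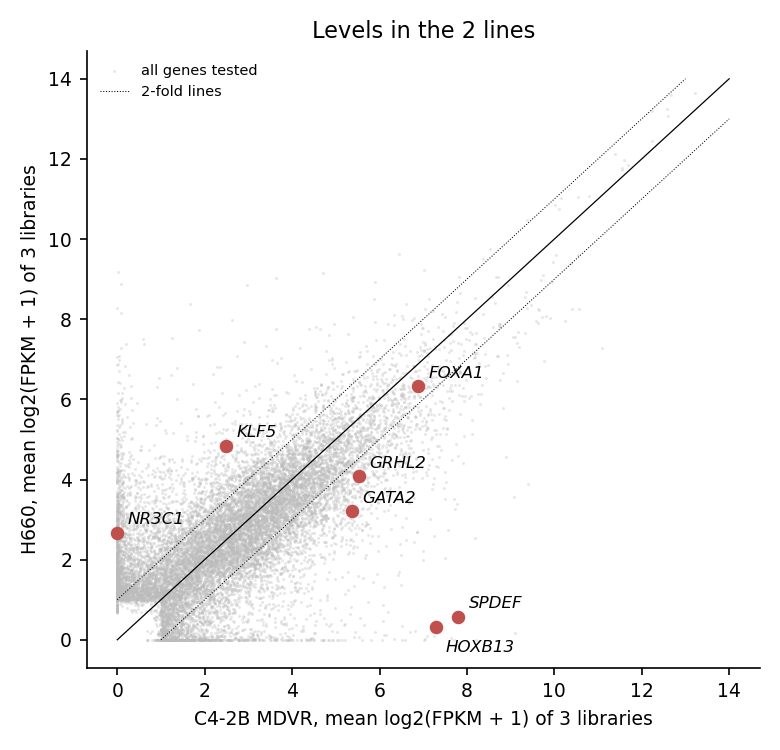
Mean level in H660 against mean level in C4-2B MDVR, both as log2(FPKM + 1) over 3 libraries, for all 15638 genes tested (grey) and the 7 transcription factors (red); the solid line is equality and the dotted lines mark a 2-fold difference. FOXA1 lies between the dotted lines, HOXB13 and SPDEF at the lower right edge, and NR3C1 and KLF5 above the upper dotted line.

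The relatives of each factor in its gene family were counted next. The HOXB cluster on chromosome 17 ends with HOXB13, and its other genes pattern the body axis farther forward. Of the 9, 8 were tested and all 8 were called higher in H660, against 20.1% of genes tested, with a median log2 difference of 3.25 beside a median of -0.00 over all genes; 5 of the 8 passed the filter through H660 alone. HOXB2 was at 0.0413, 0.106 and 0 FPKM in C4-2B MDVR and at 67.9, 56.3 and 63.0 in H660 (log2 difference 5.91 ± 0.11). HOXB3 (4.11), HOXB6 (3.32) and HOXB8 (3.27) followed, and HOXB7 was the one with a clear level in C4-2B MDVR, at 5.05, 4.58 and 4.19 FPKM against 33.5, 29.7 and 30.05 in H660. HOXB13 was therefore the only tested gene of the 10 in the cluster, HOXB13 included, that was called higher in C4-2B MDVR, and this held after each rescaling tried. Of the group 13 HOX genes of the other clusters, HOXC13 was at 5.24, 6.43 and 7.22 FPKM in C4-2B MDVR and at 0 in H660, HOXA13 was at 0 in C4-2B MDVR and at 2.68, 2.06 and 2.51 in H660, and HOXD13 was not called, although log2(FPKM + 0.1) and voom called it higher in C4-2B MDVR. HOXA13 and HOXC13 passed the filter through 1 line only.

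**Figure D3:**
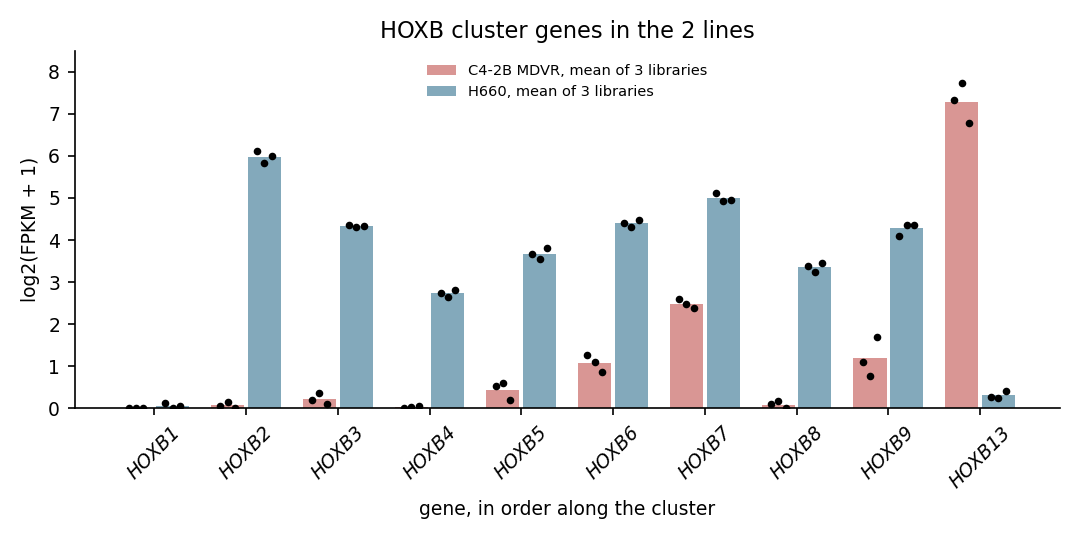
Levels of the HOXB genes in their order along the cluster, as log2(FPKM + 1); bars are means of 3 libraries from 0 and dots are the libraries, in the order control, siRNA 1, siRNA 2 from left to right. HOXB2 to HOXB9 are higher in H660 and HOXB13 is higher in C4-2B MDVR, and HOXB1, which was not tested, is near 0 in both.

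The forkhead relatives FOXA2 and FOXA3 are known for gut and liver and, for FOXA2, for neuroendocrine prostate tumours. Both were called higher in H660 (20.1% of genes tested). FOXA2 was at 0.0185, 0 and 0 FPKM in C4-2B MDVR and at 1.66, 1.72 and 1.30 in H660 (log2 difference 1.34 ± 0.13), and FOXA3 differed by 1.74 ± 0.13. Both were low beside FOXA1 at 79.0 FPKM in the same libraries, and both passed the filter through H660 alone. Of all genes that passed through 1 line only, 65% were called. GATA5 (0.70) and GATA6 (0.88) passed the filter and did not reach 2-fold, although log2(FPKM + 0.1) and voom called both and rescaling called 1, and GATA1, GATA3 and GATA4 did not pass the filter. GATA2, with means of 41.1 FPKM in C4-2B MDVR and 8.24 in H660, was thus above GATA1, GATA3 and GATA4 in each line. The levels of GATA5 and GATA6 are not reported here.

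Among the steroid receptor genes related to NR3C1, the mineralocorticoid receptor NR3C2 shared its direction but was low, at 0.314, 0.481 and 0.531 FPKM in C4-2B MDVR and 2.21, 2.13 and 1.83 in H660 (1.09 ± 0.13), a call that was lost after quantile normalization and without the C4-2B MDVR control. The progesterone receptor PGR had at most 3 fragments in a library.

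Grainyhead family genes other than GRHL2 were higher in H660 where they differed. TFCP2L1 was at 0.149, 0.0265 and 0.138 FPKM against 19.0, 16.7 and 14.5 (log2 difference 3.998 ± 0.12), TFCP2 was at 0 in C4-2B MDVR and at 4.97 to 6.23 in H660 (2.71 ± 0.12), and GRHL3 differed by 2.12 ± 0.12. These 3 were called higher in H660 (20.1% of genes tested). All 3 passed the filter through H660 alone, and 65% of genes that passed through 1 line only were called. GRHL1 (0.95) did not reach 2-fold, although log2(FPKM + 0.1), rescaling and voom called it higher in H660 as well. Of 16 KLF genes 12 were tested; 5 were called higher in H660 (20.1% of genes tested), led by KLF10 (2.18), KLF12 (1.46) and KLF11 (1.42), and 3 were called higher in C4-2B MDVR (17.9% of genes tested), led by KLF9 (-1.92) and KLF2 (-1.42). The median was 0.78, and after rescaling or with voom the calls were 7 higher in H660 and 3 higher in C4-2B MDVR. Among the epithelial ETS factors related to SPDEF, EHF shared its direction (159.5, 192.7 and 183.1 FPKM against 13.1, 13.4 and 12.0; log2 difference -3.70 ± 0.12), whereas ELF3 was higher in H660 (2.93, 9.55 and 6.02 FPKM against 129.5, 126.1 and 151.2; 4.36 ± 0.27).

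Genes known as targets of the pathways these factors serve were counted from lists that were chosen with earlier results of these data known, so their direction is a description. Of 26 androgen receptor target genes 25 were tested: 21 were called higher in C4-2B MDVR (17.9% of genes tested), 1 in H660 (TRPM8, an ion channel, 1.54), and 3 were not called. The median log2 difference was -4.17 beside -0.00 over all genes, and -4.41 with genes at 0 set at their bound. Among the largest differences were those of FOLH1 (-7.60), which encodes the membrane antigen PSMA, KLK3 (-7.17), which encodes PSA, and TMPRSS2 (-6.80), a surface protease. Of the 25, 13 passed the filter through both lines, and 11 of those 13 were called, all of them higher in C4-2B MDVR. Among all 11196 genes that passed through both lines 27.3% were called, 1784 genes of them higher in C4-2B MDVR.

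Glucocorticoid response genes did not follow NR3C1 in 1 direction. Of 20, 19 were tested, of which 5 were called higher in H660 (20.1% of genes tested), 6 higher in C4-2B MDVR (17.9% of genes tested) and 8 neither way, with a median of -0.18 that turned to 0.01 after rescaling to the same summed FPKM. TSC22D3, which encodes the leucine zipper protein GILZ, was at 103.5, 101.7 and 191.1 FPKM in C4-2B MDVR and 2.68, 3.71 and 4.72 in H660 (-4.78 ± 0.24). ANGPTL4, an inhibitor of lipoprotein lipase, was at 0.194, 0.260 and 0.273 FPKM against 21.3, 23.8 and 25.5 (4.30 ± 0.10). DDIT4, an inhibitor of mTORC1, differed by -4.21 and CEBPD, a leucine zipper transcription factor, by 4.13. FKBP5 (-3.71) and TSC22D3 stand in the androgen receptor list as well.

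All 22 epithelial junction and surface genes, the class that GRHL2 is known to maintain, passed the filter in both lines. Of these, 9 were called higher in H660, 5 higher in C4-2B MDVR and 8 neither way, with a median of 0.56 (0.85 after rescaling). Among all genes that passed through both lines 27.3% were called. The calls were 11 and 3 after rescaling, 11 and 4 with voom, 10 and 3 after quantile normalization and 8 and 7 without the C4-2B MDVR control. CLDN3, a tight junction claudin, was at 22.3, 28.3 and 25.6 FPKM in C4-2B MDVR and 532.8, 562.9 and 614.1 in H660 (4.44 ± 0.11). JUP, the junction protein plakoglobin, was at 136.7, 153.7 and 162.6 FPKM against 16.7, 14.4 and 15.1 (-3.21 ± 0.12), and CDH1, which encodes E-cadherin, differed by -2.46. Both lines thus carried epithelial junction transcripts, with different members high.

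**Figure D4:**
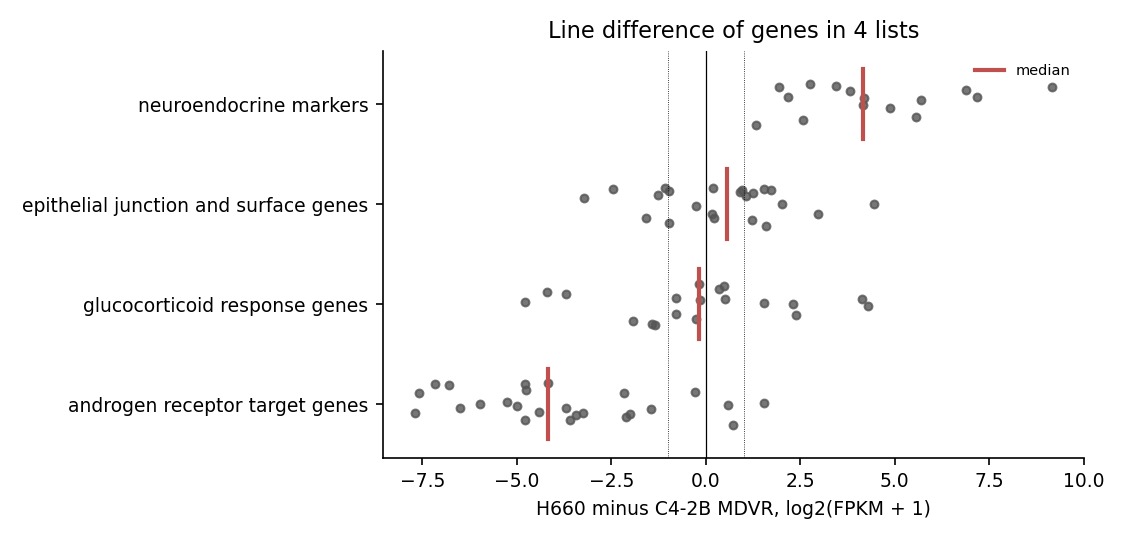
Line difference (H660 minus C4-2B MDVR, log2(FPKM + 1)) of each tested gene in 4 lists, with the list median in red and dotted lines at a 2-fold difference. Androgen receptor targets lie mostly to the left (median -4.17), neuroendocrine markers to the right (median 4.15), and the glucocorticoid response and junction lists on both sides (medians -0.18 and 0.56). Of the 15 neuroendocrine markers 13 passed the filter through H660 alone, which fixed their side.

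Of 22 other transcription factors known from prostate cells 19 were tested, with 8 called higher in C4-2B MDVR (17.9% of genes tested), 5 higher in H660 (20.1% of genes tested) and a median of -0.60. Of the 19, 8 passed the filter through both lines. After rescaling 6 were called higher in C4-2B MDVR and 7 higher in H660, and with log2(FPKM + 0.1) the median was -1.21. IRX4, an Iroquois homeobox factor, was at 35.7, 21.1 and 32.6 FPKM in C4-2B MDVR and at 0 in H660 (-4.91 ± 0.19).

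Overlapping and nearest genes of the 7 moved with some and against others. The strand of counting is not given in the sources used here, so reads of overlapping genes on opposite strands cannot be told apart. TTC6 overlaps FOXA1 on the other strand and was at 16.5, 18.5 and 12.1 FPKM in C4-2B MDVR and at 1.08, 1.02 and 0.789 in H660. GATA2-AS1 overlaps GATA2 on the other strand and was at 22.0, 21.1 and 23.0 FPKM against 12.8, 9.86 and 11.7 (log2 difference -0.89), below 2-fold. The TTC6 difference (-3.07) was larger than that of FOXA1, and the antisense gene of GATA2 differed less than GATA2. PRAC2, a prostate gene 5 bases from HOXB13, was at 8.66, 9.30 and 5.06 FPKM and at 0 in H660. PACSIN1, 2571 bases from SPDEF, was at 12.3, 27.8 and 12.5 FPKM against 1.34, 1.35 and 1.19. On the other side of SPDEF, C6orf106, 30955 bases away, was higher in H660 (1.41). So was SSTR1 (1.15), 611940 bases from FOXA1. PIBF1 (2.06) and KLF12 (1.46), the nearest protein-coding genes on each side of KLF5, lay 38515 and 608547 bases away. Both were higher in H660, as KLF5 was. NCALD (1.24) and ZNF706 (1.31), 16817 and 286239 bases from GRHL2 on each side, were higher in H660 and GRHL2 lower.

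The protein-coding genes with the pattern most like each factor were found by the distance between centred log2(FPKM + 1) values over the 6 libraries, among 12333 genes. HOXB13 was nearest to TMPRSS2 (distance 0.48) and KLK3 (0.65). NR3C1 was nearest to ZNF117 (0.11) and DCAF12L2 (0.12), FOXA1 to TBRG4 and PSMA5 (0.08 each), GRHL2 to GABARAPL2 (0.11), GATA2 to TNS4 (0.18) and ETFB (0.21), and KLF5 to IGFBP4 (0.34) and TAF7 (0.37). SPDEF was nearest to GAGE2A (0.72) and CTAG2 (0.73), which belong to multi-copy families whose reads can be split among copies, so these 2 are uncertain. The distances describe 6 libraries of 2 lines and are set mainly by the line difference.

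The PLXND1 knockdown was then compared with control in each line, the question the series was built to ask. No gene of the 15638 was called in either line (0% called in C4-2B MDVR and 0% in H660, limma adjusted p under 0.05), and none of the 7 was. At an unadjusted p under 0.05 there were 921 genes in C4-2B MDVR (5.89%) and 647 in H660 (4.14%), and voom on the recovered fragments also called 0 in each line, with 988 and 560 at that unadjusted level. The spread in this fit comes from the 2 pairs of knockdown libraries, and each line's single control is taken to vary as those pairs do. Without the H660 siRNA 2 library 49 genes were called in H660, none of them among the 7.

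GATA2 was the one of the 7 with an unadjusted p under 0.05. In C4-2B MDVR it was at 29.9 FPKM in the control, 48.9 with siRNA 1 (ratio 1.63, 95% interval 1.56 to 1.71 for counting error) and 44.4 with siRNA 2 (1.48, 1.41 to 1.56). Both knockdown libraries were above the control. The fitted change was 0.62 ± 0.15 on the log2 scale (limma adjusted p = 0.743), and adjusted p ran from 0.175 to 1 over 10 alternatives, with the change between 0.51 and 0.69 in each. In H660 both knockdown libraries were just below the control, with ratios of 0.949 (0.865 to 1.04) and 0.899 (0.819 to 0.985), the first of which spans no change in counting error alone, and a fitted change of -0.10 ± 0.15 (adjusted p = 1). The difference of the 2 effects, for which 4.48% of genes tested had an unadjusted p under 0.05 and 0 were called, was -0.72 ± 0.22 (limma adjusted p = 0.985). The lone C4-2B MDVR control, which stood apart in mitochondrial share, carries this comparison, and the part of that in the value was not tested. Its overlapping antisense gene GATA2-AS1 lay on both sides of its control of 22.0 FPKM, at 21.1 with siRNA 1 and 23.0 with siRNA 2.

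FOXA1 was at 0.825 of its control with siRNA 1 and 0.985 with siRNA 2 in C4-2B MDVR, a fitted change of -0.15 ± 0.18 (limma adjusted p = 0.99), and at 0.994 and 1.01 in H660 (0.00 ± 0.18). The H660 values were the steadiest of the 7, with an SD of 0.520 on a mean of 79.0 FPKM. SPDEF was above its control with both siRNAs in C4-2B MDVR (ratios 1.27 and 1.15; 0.27 ± 0.35, adjusted p = 0.998). GRHL2 was at 1.35 of control with siRNA 1 and at 1.00 with siRNA 2 there (0.21 ± 0.22, adjusted p = 0.978), and at 1.02 and 1.06 in H660. The interval of the siRNA 2 ratio, 0.964 to 1.05, spans no change.

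HOXB13 and KLF5 moved in opposite directions with the 2 siRNAs in C4-2B MDVR. HOXB13 was at 1.33 of control with siRNA 1 (1.30 to 1.36) and at 0.676 with siRNA 2 (0.656 to 0.698), so the siRNA 2 library held 0.509 of the siRNA 1 level. KLF5 was at 0.803 of control with siRNA 1 (0.680 to 0.946) and 1.64 with siRNA 2 (1.42 to 1.89), a ratio between the siRNAs of 2.04. Of the 12888 genes expressed in this line, 94.8% differed less between the siRNAs than HOXB13 and 92.8% less than KLF5, where the median absolute log2 difference was 0.269. With 1 library per siRNA these differences have no replicate check, and the fitted changes were -0.08 ± 0.43 for HOXB13 and 0.17 ± 0.38 for KLF5 (limma adjusted p = 1 for each). The 2 genes nearest to HOXB13 had the same order of the siRNAs: TMPRSS2 was at 135.2, 262.6 and 101.2 FPKM and KLK3 at 197.4, 227.7 and 77.5, a likeness they were chosen for.

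In H660 KLF5 and NR3C1 were above control with both siRNAs. KLF5 was at 1.38 (1.31 to 1.46) and 1.39 (1.32 to 1.47) of control, a fitted change of 0.45 ± 0.38. NR3C1 was at 1.28 (1.18 to 1.39) and 1.15 of control, a fitted change of 0.23 ± 0.16. Neither passed the test (limma adjusted p = 1 for each), and PLXND1 was still at 82.6% to 83.5% of control in these libraries. SPDEF in H660, at 7 to 48 fragments, was at 0.335 of control with siRNA 1 and 2.10 with siRNA 2, and HOXB13, at 15 to 30 fragments, was at 0.929 and 1.70. NR3C1 stayed at 0 fragments in every C4-2B MDVR library, so no change can be given there.

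Counted by direction, 3 of the 7 were above control with both siRNAs in C4-2B MDVR (SPDEF, GATA2 and GRHL2, where 32% of genes tested were), 1 was below with both (FOXA1, 25.8%), 2 were on opposite sides and 1 was at 0. In H660, 3 were above with both (NR3C1, GRHL2 and KLF5, 32.1%), 1 was below with both (GATA2, 38.3%) and 3 were on opposite sides. GRHL2 was the one of the 7 above its control in all 4 knockdown libraries, by between 1.00 and 1.35 times. Its intervals for siRNA 2 in C4-2B MDVR (0.964 to 1.05) and siRNA 1 in H660 (0.966 to 1.09) span no change. These directions are those of FPKM as deposited and depend on the scaling. With voom the fitted change in C4-2B MDVR fell from 0.21 to 0.08 for GRHL2, 0.27 to 0.14 for SPDEF and 0.62 to 0.51 for GATA2. Directions of single libraries under other scalings were not counted. The share of all genes above control in all 4 was not counted. The changes of the related lists had no called gene in either line. Androgen receptor targets had a median of -0.04 in C4-2B MDVR (8 above 0 and 17 below), glucocorticoid response genes 0.25 (14 above, 5 below) and junction genes 0.19 (16 above, 6 below), beside 0.02 over all genes, of which 52.9% were above 0 and 43.9% below. The medians depend on the scaling: they were -0.16, 0.19 and 0.12 after quantile normalization (all genes 0.00), -0.14, 0.15 and 0.10 after rescaling (all genes -0.03) and -0.18, 0.23 and 0.07 with voom (all genes -0.09). The androgen receptor targets with the largest values there were SLC45A3 (-1.20, adjusted p = 0.865) and ACPP (-1.11, adjusted p = 0.586), the glucocorticoid response gene with the largest was DUSP1 (0.93, adjusted p = 0.847), and the junction gene with the largest was RAB25 (0.90, adjusted p = 0.568). In H660 the medians were -0.01, 0.11 and 0.05, beside -0.01 over all genes.

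**Figure D5:**
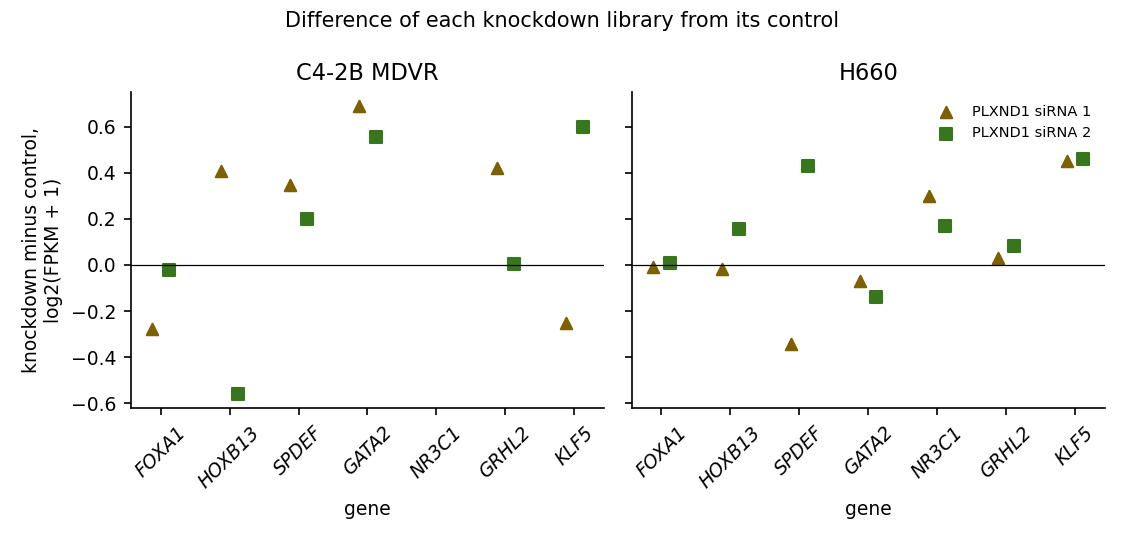
Difference of each PLXND1 siRNA library from the control library of its line, in log2(FPKM + 1), for the 7 transcription factors in C4-2B MDVR (left) and H660 (right); triangles are siRNA 1 and squares siRNA 2, and NR3C1 has no point in C4-2B MDVR because all 3 libraries are at 0. In C4-2B MDVR GATA2 is above 0 with both siRNAs, and HOXB13 and KLF5 have 1 point on each side of 0.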

How the data were processed

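Messenger RNA of 6 libraries was read with 150-base paired ends (labels' protocols). HISAT, Cufflinks and the build hg18 are named, without versions or roles, per the submitters' processing notes. The authors deposited FPKM for 58735 Ensembl identifiers, all of them in GENCODE release 29, an annotation of GRCh38, which gave names, exon lengths and the gene coordinates printed here. FPKM times exon length gave whole multiples of 1 step per library, within 0.05 fragments, for 100.0% of genes of at most 100 fragments (11213 to 13424 per library), and fragments were recovered from that step. That step implies a library size of 0.92 to 1.08 times the summed fragments, below them in both C4-2B MDVR knockdown libraries and above them in the other 4; the reason is not given in the sources used here, and FPKM was used as deposited.

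The test used genes whose mean FPKM reached 1 in either line, as log2(FPKM + 1) with limma 3.58.1 (R 4.3.3, intensity trend, two-sided, Benjamini-Hochberg, threshold 0.05). Line and treatment were additive for the line difference, and 4 groups were fitted for the knockdown effects. Fits were tested on simulated data. Intervals are 95%, exact Poisson or exact binomial, for counting error only. The members and lists were chosen with earlier results of these data known. The text names the 7 genes, up to 4 genes of each list with the largest values, and the 2 genes nearest to each member; others named (HOXB7, KLF11, TRPM8, FKBP5, marker and neighbouring genes) were chosen after their values were seen. Some genes that fall under this rule are not reported here. Alternatives were another pseudocount, no filter, other scalings, voom on fragments, a siRNA number term and leaving out a library; leaving out a control was added after seeing the data. No proteins were printed because no protein table was used here.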

Additional observations from a re-analysis of the deposited data

Results flagged for a closer look

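The change of GATA2 with PLXND1 knockdown went in opposite directions in the lines. Both knockdown libraries were above the control in C4-2B MDVR, as for 32% of genes tested. Both were below it in H660, as for 38.3% of genes tested. There the siRNA 1 ratio of 0.949 (0.865 to 1.04) spans no change in counting error alone. The share of genes with opposite directions in the lines was not counted. PLXND1 itself was at 21.2% and 41.8% of control in C4-2B MDVR but at 83.5% and 82.6% in H660. The difference of the effects, H660 minus C4-2B MDVR, was -0.72 on the log2(FPKM + 1) scale (limma adjusted p = 0.985), so it did not pass the test over all genes, where 701 of 15638 genes (4.48%) had an unadjusted p under 0.05. It ran from -0.79 to -0.64 over 10 alternatives, with adjusted p from 0.183 to 1.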

How the results depend on the processing

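Over 14 alternatives the count of line differences ran from 5310 to 7493, against 5946, and every one of the 7 genes kept its direction. The median of all genes moved from -0.00 to 0.27 after rescaling and 0.17 with voom, and the share of calls that were higher in H660 from 52.9% to 65.0% and 59.1%; it was 47.4% after quantile normalization.

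Without the filter the knockdown counts rose from 0 to 851 in C4-2B MDVR, 876 in H660 and 1372 for the difference between lines, of which 19, 15 and 20 were among the genes that had passed the filter and 0 were among the 7. In H660 the count was 1 with a pseudocount of 0.1, 1 after quantile normalization and 1 after rescaling, and it ran from 0 to 49 when a knockdown library was left out (49 without siRNA 2). Small effects changed sign. For SPDEF in H660 (0.04) the value was -0.11 with a pseudocount of 0.1 and -0.22 with voom. For FOXA1 in H660 (0.00) it was -0.0052 after quantile normalization, -0.018 after rescaling and -0.014 with voom.

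Leaving out 1 knockdown library gave these ranges, with the cause not tested: in C4-2B MDVR -0.56 to 0.41 for HOXB13 and -0.25 to 0.60 for KLF5; in H660 -0.0086 to 0.010 for FOXA1, -0.017 to 0.16 for HOXB13 and -0.34 to 0.43 for SPDEF; and for the difference between lines -0.34 to 0.63 for HOXB13, -0.62 to 0.16 for SPDEF, -0.36 to 0.051 for GRHL2 and -0.14 to 0.70 for KLF5.

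The siRNA numbers share only the siRNA: over 15638 genes the difference between siRNAs correlated by -0.004 between the lines. With a replicate block for the siRNA number, counts were 5993 for the line difference, 0 and 1 for the knockdown in C4-2B MDVR and H660, and 0 for its difference. Depth limits HOXB13 and SPDEF in H660, on 7 to 48 fragments, and NR3C1 in C4-2B MDVR, on 0.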
